A study of Mus musculus with 12 samples.

Results

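The genes described here are 40 antioxidant and detoxification genes around the transcription factor NRF2, the glutathione system and the thioredoxin system. They were taken by name from a written list, and all 40 were among the 57278 genes of the count table. RNA was measured in 3 mouse pancreatic tumor cell lines, DDKC_9750, DDKC_9790 and DDKC_9804, untreated or treated with rDKK3, a soluble recombinant form of the secreted protein DKK3, with 2 libraries for each line and condition and 12 in all. Every group shared the DKK3 knockout, present in all cells of the mice, and Cre driven by the pancreatic gene Ptf1a. Each line is a culture grown from a tumor, so the comparison rests on 3 lines, and the rDKK3 concentration used for RNA is not given in the sources used here. The age of the mice is likewise not given in these sources. The comparison asks how tumor cells that lack DKK3 respond when the protein is supplied from outside.

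NRF2, encoded by Nfe2l2, is held at a low protein level by KEAP1, which directs it to the proteasome. Oxidants and electrophiles disable KEAP1, and NRF2 then pairs with small MAF proteins and binds antioxidant response elements near genes that make glutathione, recycle thioredoxin, conjugate electrophiles and supply NADPH. Because the control acts on the protein, Nfe2l2 RNA is not a measure of NRF2 activity. In tumor cells this system is known for keeping oxidants low.

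Total counts ranged from 7520741 to 24541083 in untreated and from 3822987 to 11567095 in rDKK3-treated libraries. Dkk3 had 0 counts in 11 of 12 libraries and 1 count in the other, a treated library of DDKC_9750. Allowing for a shift between lower and higher library numbers, the 2 libraries of a line and condition differed by less than sampling noise. Their counts were therefore summed and counted as 1 sample, giving 6 samples. Levels are CPM, the counts scaled to the total of the sample after TMM normalization, and a log2 fold change is rDKK3 minus untreated. The epithelial markers Krt8, Krt18 and Krt19 were each at 784 CPM or more in all 6 samples, whereas Epcam did not exceed 2.04 CPM. Of the acinar markers, Cpa1, Cela2a, Pnlip and Ptf1a were at 0 counts throughout. The immune markers Adgre1, Cd3e and Lyz2 were also at 0 counts, and the endothelial marker Pecam1 did not exceed 0.258 CPM. Other immune markers were detected in all 6 samples, Csf1r at 5.805 to 10.27 CPM and Cd68 at 2.03 to 38.1 CPM. Separate libraries called 0 of 8 acinar and 0 of 4 endothelial markers, of which 1 each was tested. These were Cela1, which did not exceed 11.7 CPM, and Kdr, which did not exceed 17.3 CPM.

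A core of the antioxidant response element, TGACNNNGC on either strand, was searched in RefSeq promoters of the GRCm38.p6 build (250 bases before to 50 bases after each gene's start). Promoters were found for 36 of the 40 genes and not for Prdx6, Gsr, Gclc and Gsta4. The core was present in 11 of the 36 (30.6%) and in 14% of all gene symbols with a promoter. The genes were Nfe2l2, Gclm, Txnrd1, Srxn1, Prdx1, Gstm5, Mgst1, Sod1, G6pdx, Pgd and Me1. A looser core, TGANNNNGC, which includes every match of the first, was present in 21 of 36 (58.3%) and in 45% of all symbols. The stretches below lie upstream of NRF2 itself, of the regulatory subunit of the first enzyme of glutathione synthesis and of cytosolic thioredoxin reductase. They were placed on GRCm39 by their single exact match and cross no annotated exon of the gene they belong to. Capitals mark the core, read 5′ to 3′ on the strand of the gene.
Nfe2l2: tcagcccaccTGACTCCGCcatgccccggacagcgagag
Gclm: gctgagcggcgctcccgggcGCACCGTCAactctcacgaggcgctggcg
Txnrd1: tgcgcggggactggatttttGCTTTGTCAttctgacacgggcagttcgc
The Nfe2l2 stretch is at chr2:75535219-75535257 on the minus strand, over exons of its annotated neighbours E030042O20Rik and Gm75256. The Gclm stretch is at chr3:122039052-122039100 on the plus strand, within the annotated gene ENSMUSG00000132270 but outside its exons. The Txnrd1 stretch is at chr10:82694928-82694976 on the plus strand, in an intron of Txnrd1 and over an exon of Gm38560. In Gclm and Txnrd1 the core reads on the opposite strand, as TGACGGTGC and TGACAAAGC. In Prdx1 and Me1 it reads TGACTCAGC, the same letters in both genes. Such a match is a description of the letters and does not show binding.

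Levels between genes were compared only per length, as the mean untreated CPM divided by kilobases of the canonical transcript. On that scale Txn1, the cytosolic thioredoxin, had the highest value of the 40 genes at 391 CPM per kb. It was followed by the peroxiredoxin Prdx1 at 304 and by Gpx4, which reduces lipid peroxides in membranes, at 279. This order depends on the transcript chosen, whose length was 790 bases for Txn1, 2673 for Prdx1 and 5315 for Sod1. Before division by length, mean untreated levels were 309 CPM for Txn1, 813 for Prdx1 and 214 for Sod1. Nqo1, the quinone reductase often used to read out NRF2, stood near the bottom at 1.69 CPM per kb. Gpx2, an epithelial glutathione peroxidase, had 0 counts in 5 of 6 samples and 3 counts in DDKC_9750 with rDKK3. It was the only gene removed by the filter on low counts, so 39 of the 40 genes were tested.

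The 3 lines held different amounts of many of these transcripts. With edgeR's quasi-likelihood test on the 6 samples, 20 of 39 genes (51.3%) differed between lines at an adjusted p under 0.05, where 35.3% of all 15165 tested genes did. This test uses treated and untreated samples, with treatment in the model, and the p-values of line given next are from it. Untreated levels alone, with 1 sample for each line, are a description with no test. The untreated level was highest in DDKC_9790 for 27 of 39 genes (69.2%), where 35.9% of all tested genes were highest in that line. It was lowest in DDKC_9790 for 3 of 39 genes, Nfe2l2, Gpx1 and Prdx4, where 39% of all tested genes were lowest. The median ratio of highest to lowest line was 1.78 for the 39 genes and 1.67 for all tested genes.

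**Figure D1:**
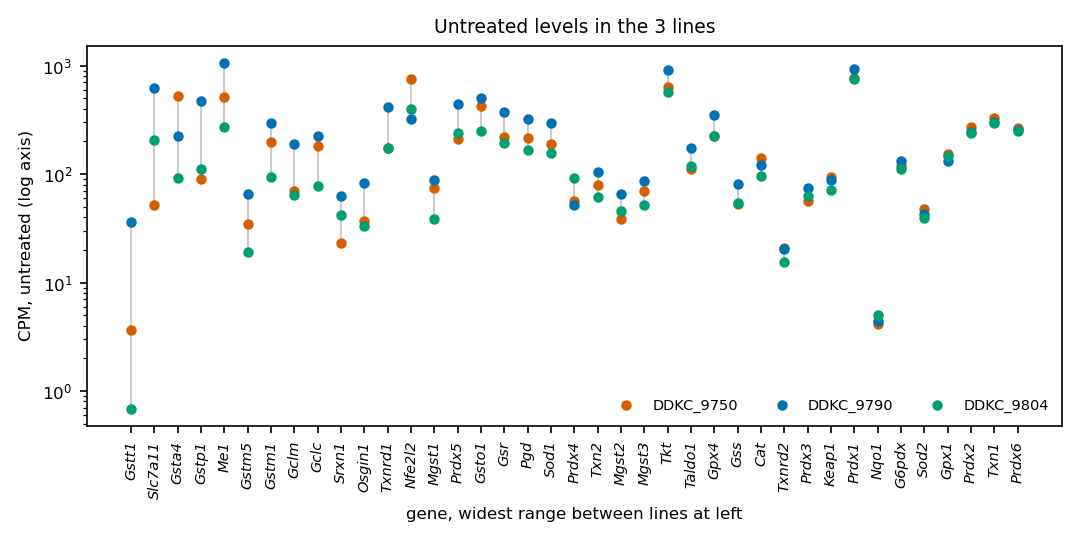
Untreated CPM (log axis) of the 39 tested genes in the 3 DDKC lines; each point is the summed sample of 1 line and grey bars join the lines. The ratio of highest to lowest line ran from 52.6 in Gstt1 to 1.05 in Prdx6, and DDKC_9790 was highest in 27 genes.

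Gstt1, a theta-class glutathione transferase, had the widest range, with 3.66 CPM in DDKC_9750, 36.0 in DDKC_9790 and 0.684 in DDKC_9804 (adjusted p = 0.0161, edgeR). Slc7a11, the cystine importer that feeds glutathione synthesis, was at 52.0, 626 and 205 CPM in the same order (adjusted p = 0.00607, edgeR). Both genes were highest in DDKC_9790. Me1, malic enzyme, which makes NADPH in the cytosol, was at 512, 1062 and 273 CPM (adjusted p = 0.00600, edgeR). Gstp1, the pi-class transferase, was at 89.5, 468 and 112 CPM (adjusted p = 0.00724, edgeR). Gstp1 and Gstp2 are nearly identical in sequence, so their counts are uncertain, and Gstp2 was at 74.2 CPM in DDKC_9790 against 0.964 in DDKC_9750 and 0.799 in DDKC_9804. Gsta4, a transferase for lipid aldehydes, had another order, with 528 CPM in DDKC_9750, 223 in DDKC_9790 and 92.2 in DDKC_9804 (adjusted p = 0.0126, edgeR). At the other end were Prdx6, with 265, 253 and 252 CPM, and Txn1, with 329.8, 302 and 294 CPM, which did not pass the test of line (adjusted p = 0.307 and 0.481, edgeR).

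With rDKK3, no single gene of the 39 passed the test over the 3 lines, while most fitted changes were below 0. The edgeR test called 0 genes higher and 0 lower, where 0.00659% of all tested genes were called higher and 0% lower. The fitted log2 fold change was below 0 for 29 of 39 genes (74.4%), where 50.8% of all tested genes were below 0. The 29 include Gsr and Prdx5, whose values round to 0.00. The median log2 fold change was -0.215 for the 39 genes and -0.00542 for all tested genes. An unadjusted p under 0.05 was found for 9 of the 39 genes, all lower, and for 1294 of all tested genes. DESeq2 on the same 6 samples called 3 of the 39 genes lower, Txn1, Mgst3 and Me1, where 0.462% of all tested genes were called lower. Without the filter on low counts edgeR called 2 lower, Mgst3 and Me1, where 0.164% of 29823 genes were called lower. The median was -0.401 without DDKC_9750 and -0.11 without DDKC_9790. By line the median log2 fold change of the 39 genes was 0.0181 in DDKC_9750, -0.396 in DDKC_9790 and -0.320 in DDKC_9804, so the lower levels stood in the last 2 lines. In these bulk samples, fewer cells of a type and less RNA per cell cannot be told apart.

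When the 12 libraries entered as separate samples, 14 of 39 genes were called lower, where 10.1% of all tested genes were, and 1 gene, Osgin1, was called higher, where 7.95% were. That fit counts every library as a sample of its own, although more libraries of the same line do not add lines. Its error holds differences in response between lines as well as the spread between libraries. Its p-values are therefore too small for a statement about lines. The genes called lower were Keap1, Gss, Txn1, Txnrd2, Prdx2, Prdx3, Prdx4, Gstm1, Mgst2, Mgst3, Sod1, Cat, Tkt and Me1. Without any test, 14 genes were lower in all 3 lines, where 18.2% of all tested genes were, and 0 were higher in all 3, where 14.2% were.

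**Figure D2:**
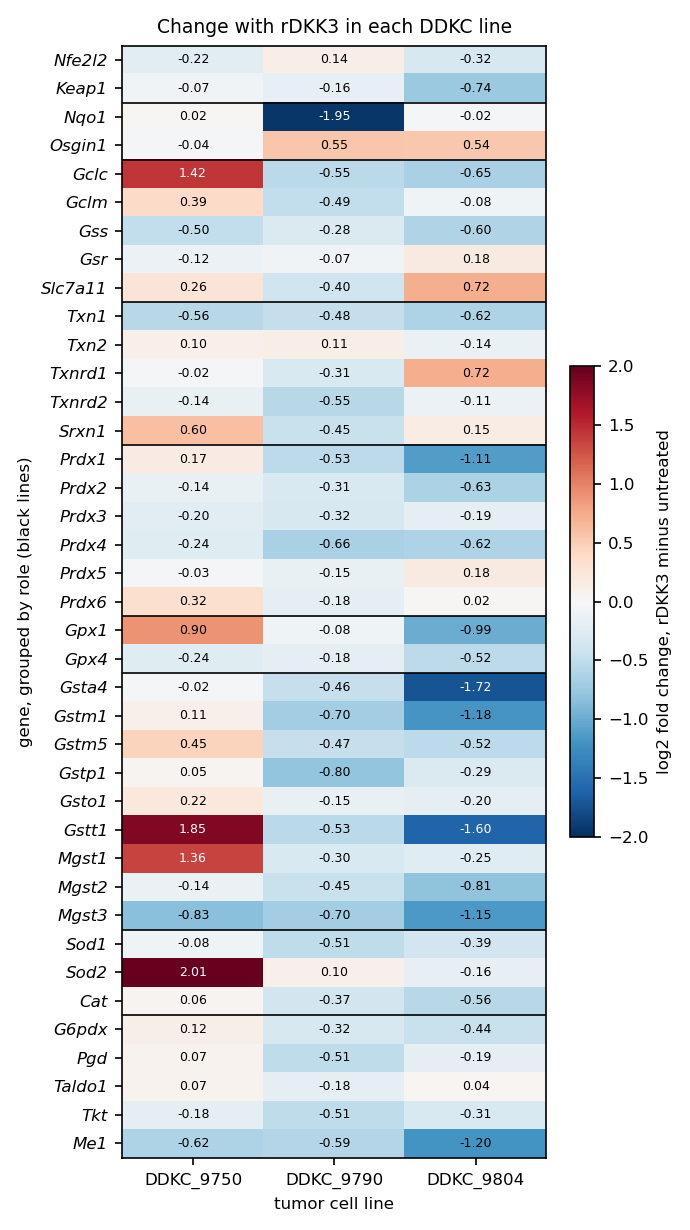
Log2 fold change (rDKK3 minus untreated, colour and printed value) of the 39 tested genes in each DDKC line, grouped by role. Blue (lower) fills most of the columns of DDKC_9790 and DDKC_9804, whereas DDKC_9750 holds the highest value, 2.01 for Sod2; the value of -1.60 for Gstt1 in DDKC_9804 rests on few counts.

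Of the 5 genes of the thioredoxin system, 2 were lower in each line, Txn1 and Txnrd2, and the other 3 had fitted changes above 0. Txn1 (ENSMUSG00000028367.6, chr4:57943373-57956411, GRCm39) went from 329.8 to 224 CPM in DDKC_9750, from 302 to 217 in DDKC_9790 and from 294 to 192 in DDKC_9804. It was the single gene of the 39 (2.56%) whose untreated samples all lay above its rDKK3 samples, near the 2.1% of all tested genes that did so. The reverse was seen for 0 of 39, where 2.02% did so. Its log2 fold change was -0.55 ± 0.11 (SE from the fit on 3 lines, adjusted p = 0.578, edgeR), and the separate libraries gave an adjusted p of 4.9e-05 with edgeR. Txnrd2, the mitochondrial reductase of thioredoxin, was at 20.9, 20.2 and 15.5 CPM untreated and 18.9, 13.8 and 14.3 CPM with rDKK3 in the same line order, and these groups overlapped.

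Among the other thioredoxin genes directions were mixed. Txnrd1, the cytosolic reductase, was at 175, 416 and 175 CPM untreated and 172, 335 and 287 CPM with rDKK3, higher in DDKC_9804 and lower in DDKC_9790. Srxn1, sulfiredoxin, which restores over-oxidized peroxiredoxins, was at 23.2, 62.7 and 42.1 CPM untreated and 35.2, 46.0 and 46.7 CPM with rDKK3. Neither passed the test over lines (adjusted p = 0.877 and 0.903, edgeR). Txn2, the mitochondrial thioredoxin, had a log2 fold change of 0.03 ± 0.11 (SE).

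Peroxiredoxins, which break down hydrogen peroxide, had fitted changes below 0 in 5 of 6 genes, all but Prdx6. The value of Prdx5 rounds to 0.00, and 3 of the 6 genes were lower in every line. Prdx4, the form of the endoplasmic reticulum, went from 56.9 to 48.0 CPM in DDKC_9750, from 52.0 to 33.0 in DDKC_9790 and from 92.9 to 60.3 in DDKC_9804, a log2 fold change of -0.51 ± 0.13 (SE, adjusted p = 0.578, edgeR). Prdx2, cytosolic, was at 274, 244 and 241 CPM untreated and 248, 197 and 155 CPM with rDKK3. Prdx3, the mitochondrial form, was at 56.6, 74.7 and 62.2 CPM untreated and 49.1, 59.8 and 54.4 CPM with rDKK3. In each of these the lower value was found in every line, although the untreated and treated groups overlapped. Prdx5 and Prdx6 had log2 fold changes of 0.00 and 0.05, and Prdx1 is described with the line-dependent genes.

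Glutathione transferases, which join glutathione to electrophiles, were below 0 in 7 of 9 fitted changes. Mgst3 (ENSMUSG00000026688.6, chr1:167199535-167221410, GRCm39), a membrane-bound member of the group, had the lowest fitted value of the 39 genes. It went from 69.1 to 38.8 CPM in DDKC_9750, from 86.6 to 53.2 in DDKC_9790 and from 52.4 to 23.6 in DDKC_9804. The log2 fold change was -0.89 ± 0.14 (SE from the fit on 3 lines, adjusted p = 0.578, edgeR), and both DESeq2 and the fit without the filter called it, as stated above. Mgst2, a relative of Mgst3, was at 38.8, 65.0 and 46.1 CPM untreated and 35.2, 47.6 and 26.3 CPM with rDKK3. Its values were lower in every line, least in DDKC_9750. Gstm1, a mu-class transferase, was at 197, 298 and 93.7 CPM untreated and 212, 184 and 41.4 CPM with rDKK3. Gsta4 was at 528, 223 and 92.2 CPM untreated and 521, 162 and 27.9 CPM with rDKK3. For these 2 genes DDKC_9750 hardly moved, and DDKC_9804 had the lowest log2 fold change (-1.18 for Gstm1 and -1.72 for Gsta4). Gstp1, uncertain as stated, was at 89.5, 468 and 112 CPM untreated and 92.6, 269 and 91.6 CPM with rDKK3. Of the remaining transferases, Gstm5 and Gsto1 had log2 fold changes of -0.18 and -0.04, higher in DDKC_9750 and lower in the other lines, and Gstt1 and Mgst1 are described with the line-dependent genes.

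**Figure D3:**
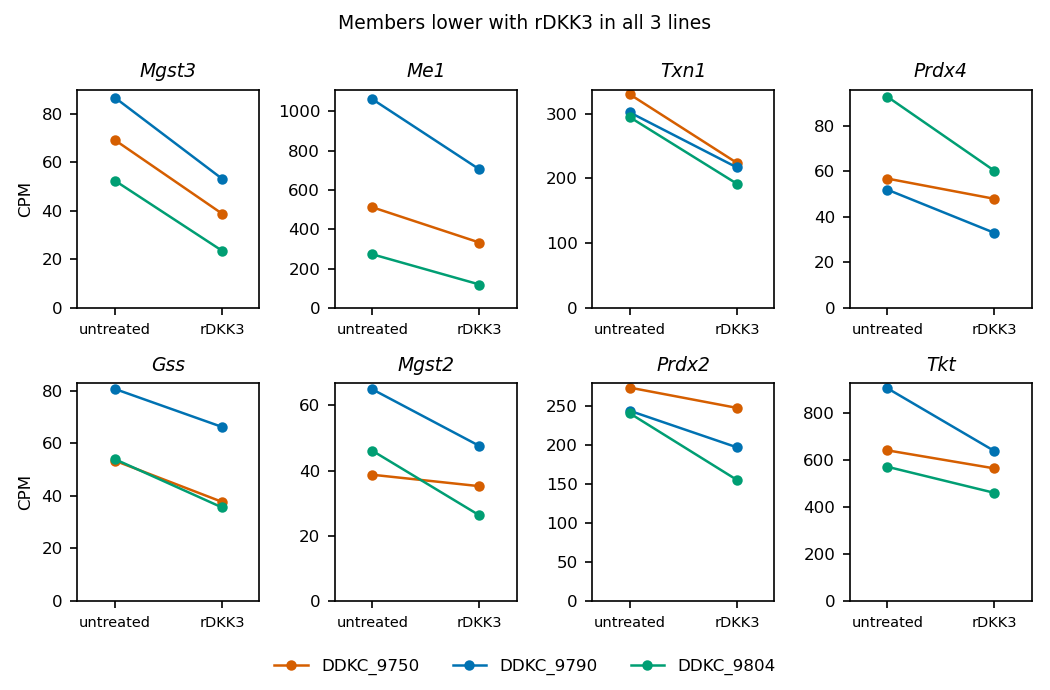
CPM of 8 genes that were lower with rDKK3 in all 3 DDKC lines; lines join the untreated and treated summed sample of 1 line, and each vertical axis starts at 0. Txn1 alone shows no overlap between the conditions, with 294 CPM in the lowest untreated and 224 CPM in the highest treated sample. Untreated samples all lay above rDKK3 samples in 2.1% of all tested genes.

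The 5 genes grouped under NADPH supply, which make NADPH or act in the pentose phosphate pathway, all had fitted changes below 0. Me1 (ENSMUSG00000032418.16, chr9:86463424-86578006, GRCm39) went from 512 to 332.5 CPM in DDKC_9750, from 1062 to 705 in DDKC_9790 and from 273 to 119 in DDKC_9804. It was lower in each line, with a log2 fold change of -0.80 ± 0.16 (SE, adjusted p = 0.578, edgeR). Tkt, transketolase of the pentose phosphate pathway, was at 642, 906 and 572 CPM untreated and 565, 638 and 460.4 CPM with rDKK3. The other 3, G6pdx, Pgd and Taldo1, had fitted log2 fold changes from -0.22 to -0.02 and were not lower in every line.

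Fitted changes in glutathione synthesis had mixed signs, with 3 of 5 below 0. Gss, which completes glutathione, was at 53.4, 80.8 and 54.0 CPM untreated and 37.8, 66.3 and 35.6 CPM with rDKK3, lower in each line with a log2 fold change of -0.46 ± 0.12 (SE, adjusted p = 0.578, edgeR). Gclc, the catalytic subunit of the first and limiting step, went from 182 to 488 CPM in DDKC_9750, from 226 to 155 in DDKC_9790 and from 78.0 to 49.5 in DDKC_9804. Its partner Gclm was at 69.1, 190.1 and 64.2 CPM untreated and 90.4, 135 and 60.8 CPM with rDKK3. Both subunits were higher in DDKC_9750 and lower in the other lines. Slc7a11 was at 52.0, 626 and 205 CPM untreated and 62.3, 475 and 338 CPM with rDKK3, lower in DDKC_9790 alone. Gsr, which returns oxidized glutathione to its reduced form, had a log2 fold change of -0.00 ± 0.12 (SE).

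Neither regulator passed the test over lines. Nfe2l2 (ENSMUSG00000015839.7, chr2:75505857-75534985, GRCm39) was at 753, 321 and 400.2 CPM untreated and 648, 353 and 320.5 CPM with rDKK3, a log2 fold change of -0.13 ± 0.14 (SE, adjusted p = 0.793, edgeR). Keap1 (ENSMUSG00000003308.16, chr9:21141026-21150657, GRCm39) was at 93.1, 88.7 and 70.7 CPM untreated and 88.9, 79.2 and 42.4 CPM with rDKK3, lowest in treated DDKC_9804 (log2 fold change -0.32 ± 0.16, SE; adjusted p = 0.630, edgeR). Of the stress targets, Nqo1 was at 4.12, 4.43 and 4.99 CPM untreated and 4.17, 1.08 and 4.93 CPM with rDKK3, so the lower value was in DDKC_9790. Osgin1, an oxidative stress-induced growth inhibitor, was at 36.6, 83.3 and 32.9 CPM untreated and 35.7, 122 and 47.7 CPM with rDKK3, higher in 2 lines.

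Of the enzymes that remove superoxide and hydrogen peroxide, Sod1, the cytosolic superoxide dismutase, was at 189, 294 and 158 CPM untreated and 179, 207 and 121 CPM with rDKK3. Catalase, Cat, was at 142, 120.3 and 95.2 CPM untreated and 148, 92.9 and 64.5 CPM with rDKK3. Sod1 was lower in every line and Cat in 2 of 3, and neither passed the test over lines (adjusted p = 0.587 and 0.636, edgeR). Gpx4 was also lower in every line, at 226, 352 and 226 CPM untreated and 192, 309.7 and 158 CPM with rDKK3. Its 2 libraries differed as well, from the lower to the higher library number. In DDKC_9750 they were at 191 and 251 CPM untreated and at 168 and 207 CPM with rDKK3.

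The size of the response to rDKK3 differed between lines for 38 of 39 genes, all but Prdx3, by a test of line-dependent response over 12 libraries (edgeR, adjusted p under 0.05), where 61.9% of all tested genes did. This test and the calls in single lines compare cultures with library noise alone, since nothing shows the libraries of a line and condition to be separate cultures. In DDKC_9750, 14 genes were called higher, where 22% of all tested genes were, and 12 lower, where 23.6% were. In DDKC_9790, 3 were called higher, where 18.7% were, and 34 lower, where 21.3% were. In DDKC_9804, 5 were called higher, where 24.4% were, and 26 lower, where 30.6% were.

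The larger increases, called against library noise, were in DDKC_9750. Sod2, the mitochondrial superoxide dismutase, went from 47.4 to 191 CPM there, from 42.8 to 45.9 in DDKC_9790 and from 39.7 to 35.6 in DDKC_9804. Mgst1, a membrane-bound transferase, went from 73.9 to 189 CPM in DDKC_9750 and was lower in the other lines, at 71.2 after 87.8 and 32.4 after 38.6 CPM. Gpx1, the cytosolic glutathione peroxidase, went from 153 to 285 CPM in DDKC_9750, from 131 to 124 in DDKC_9790 and from 148 to 74.7 in DDKC_9804. These 3 genes were singled out after their values were seen. Mgst1 and Gpx1, like Gclc, were higher in DDKC_9750 alone, and Sod2 was called higher there and not in the other lines. Gstt1 went from 3.66 to 13.4 CPM in DDKC_9750 and from 36.0 to 24.8 in DDKC_9790, while DDKC_9804 had 2 counts in its treated sample, under the floor of 3 counts. Prdx1 was at 762, 924 and 752 CPM untreated and 856, 639 and 348 CPM with rDKK3, so it was lower in 2 lines and slightly higher in DDKC_9750.

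**Figure D4:**
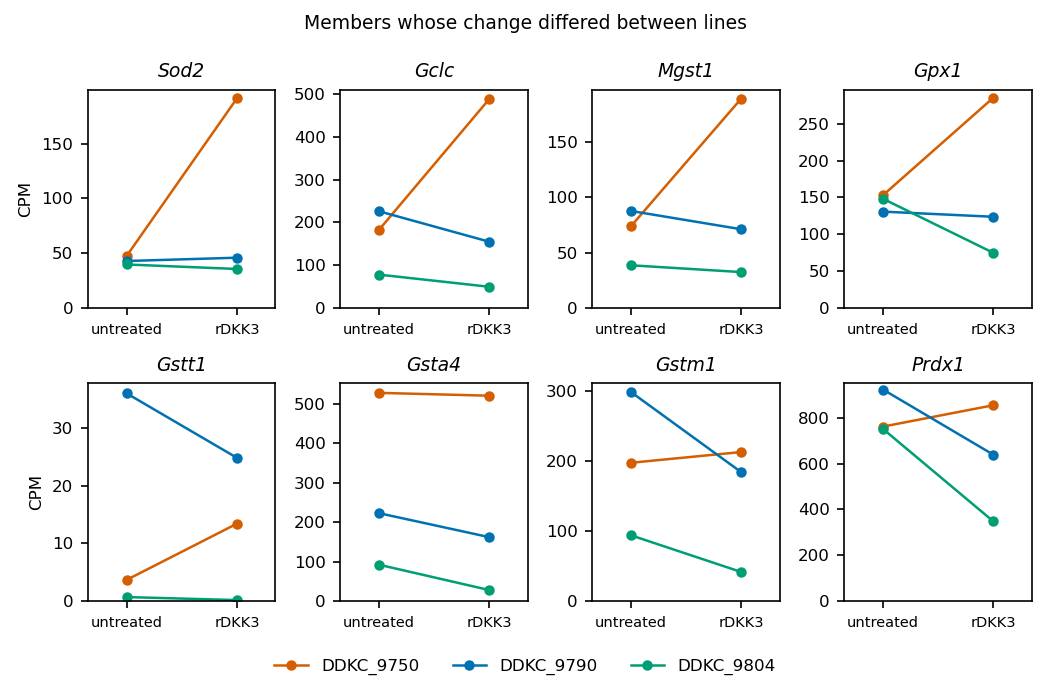
CPM of 8 genes whose response differed between the DDKC lines; lines join the untreated and treated summed sample of 1 line, and each vertical axis starts at 0. Sod2, Gclc, Mgst1 and Gpx1 were higher with rDKK3 in DDKC_9750 (191 against 47.4 CPM for Sod2), whereas Gsta4, Gstm1 and Prdx1 were lowest in treated DDKC_9804.

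Genes outside the 40, from written lists of the same pathways, were read with the same tests, and the 6-sample edgeR test called 0 of the 93 tested in either direction. An unadjusted p under 0.05 was found for 16 of them and for 1294 of all 15165 tested genes. DESeq2 called 1 of them, Aldh1l2, and 103 of all tested genes. Separate libraries called 7.95% of all tested genes higher and 10.1% lower, the shares that stand beside the counts below. Of 12 other NRF2 partners and regulators, separate libraries called 2 higher, Nfe2l1 and Mafk, and 2 lower, Rbx1 and Pir. Of 20 tested among 22 other NRF2 targets, 2 were called higher, Hmox1 and Tigar, and 2 lower, Ephx1 and Ptgr1. Hmox1, heme oxygenase, was at 6.61, 29.5 and 13.2 CPM untreated and 14.1, 27.7 and 46.6 CPM with rDKK3. Of 20 tested among 26 other glutathione enzymes, 1 was called higher, Ggct, and 3 lower, Chac2, Hagh and Gpx8. Ggct, which acts in glutathione turnover, was at 4.45, 8.21 and 7.22 CPM untreated and 12.7, 10.5 and 23.6 CPM with rDKK3, higher in each line. Of 18 other thioredoxin and glutaredoxin genes, 1 was called higher, Sesn2, and 4 lower, Txnl1, Txndc17, Glrx5 and Sesn1. Of 12 tested among 13 other NADPH sources, 2 were called higher and 2, Pgls and Me2, lower. The higher ones were Mthfd2 and Aldh1l2, mitochondrial folate enzymes, and Aldh1l2 was at 6.18, 204 and 25.9 CPM untreated and 32.3, 221 and 137 CPM with rDKK3.

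Of 11 genes tested among 16 for oxidant-producing enzymes, their subunits and maturation factors, the 6-sample edgeR test called 6 different between lines. Of all tested genes 35.3% were. With rDKK3, separate libraries called 3 higher, Duox2, Duoxa2 and Cybb, and 2 lower, Nox4 and Aox1. Of all tested genes that fit called 7.95% higher and 10.1% lower. Nox4 went from 11.2 to 5.53 CPM in DDKC_9750. Its counts, untreated and treated, were few in the other lines, 4 and 1 in DDKC_9790 and 12 and 0 in DDKC_9804. Duox2, an oxidase that releases hydrogen peroxide, went from 1.53 to 132 CPM in DDKC_9750, and in the other lines it did not exceed 0.162 CPM. Its maturation factor Duoxa2 went from 0.897 to 41.1 CPM in DDKC_9750. Cybb, the catalytic subunit of the phagocyte oxidase, went from 2.92 to 64.8 CPM in the same line. The increases of these 3 genes stood in DDKC_9750, where 22% of all tested genes were called higher against library noise. Over the 3 lines, Duox2, Duoxa2 and Cybb had adjusted p = 0.578, 0.578 and 0.678 (edgeR, 6 samples). A link to the antioxidant genes was not tested.

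Cell type markers, depth and transcript length are given here beside the result, and their part in it was not tested. Separate libraries called 7.95% of all tested genes higher and 10.1% lower, the shares beside the marker counts below. Of 7 epithelial markers, that fit called 4 lower (Krt7, Krt8, Krt18 and Krt19) and 1 higher (Sox9). The summed level of the epithelial markers ranged from 5332 to 9798 CPM untreated and from 4092 to 8098 CPM with rDKK3. Of 8 fibroblast markers, 2 were called higher, Pdpn and Acta2, with Dcn, Lum and Col1a2 at most at 0.388 CPM. Acta2 was at 38.1 CPM untreated and 127 CPM treated in DDKC_9750 and Pdpn at 0.266 and 4.27 CPM. In DDKC_9790 and DDKC_9804 neither exceeded 0.108 CPM with rDKK3. In line order, Pdgfra was at 1.695, 5.76 and 0.827 CPM untreated and 0.680, 6.98 and 4.27 CPM treated. Col1a1 was at 11.2, 3.225 and 1.65 CPM untreated and 6.70, 4.65 and 0.986 CPM treated. Pdgfrb was at 4.335 CPM in untreated DDKC_9804 and 0.493 CPM there with rDKK3. The summed fibroblast markers ranged from 7.19 to 51.3 CPM untreated and from 5.75 to 139 CPM with rDKK3. Of 8 immune markers, 1 was called higher, Cd68, and the summed level ranged from 9.54 to 29.1 CPM untreated and from 10.4 to 46.1 CPM with rDKK3. Treated samples were also shallower, and with all 6 samples thinned to the same total the median log2 fold change of the 39 genes was -0.200.

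Transcript length moved with the fold change too. The median transcript length was 2144 bases for the 40 genes and 3026 for all tested genes. The median log2 fold change of all genes was -0.09 under 1 kb, -0.10 from 1 to 2 kb, -0.01 from 2 to 4 kb and 0.05 over 4 kb. The members in these classes, 5, 12, 15 and 7 genes, had medians of -0.35, -0.15, -0.21 and -0.06, each below that of all genes of their class. Over 4 kb, 4 of the 7 were lower. With an offset for transcript length in the fit, the median was -0.212 for the 39 genes and -0.00492 for all tested genes. With it 24 of the 39 were below 0, against 29 in the main fit. Genes with the TGACNNNGC core had a median log2 fold change of -0.18 (8 of 11 below 0), and those without it -0.30 (18 of 24 below 0). In the same main fit 50.8% of all tested genes were below 0.

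**Figure D5:**
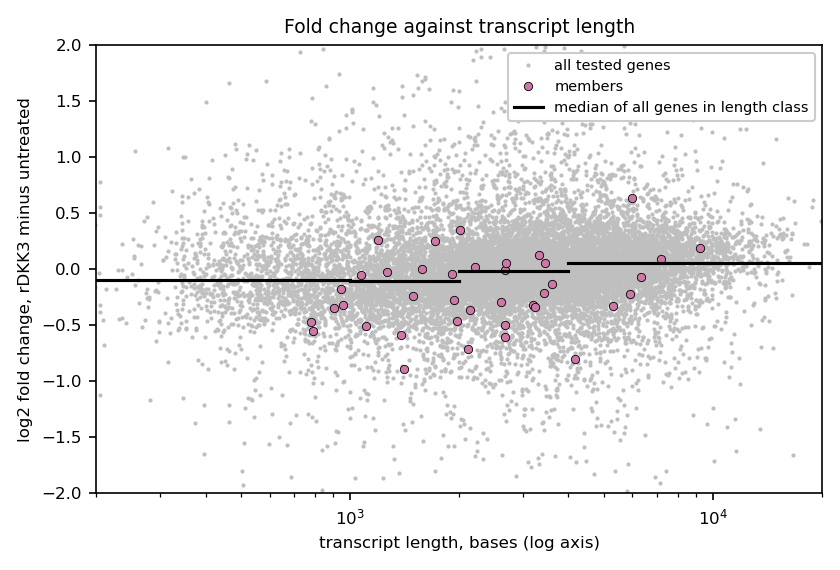
Log2 fold change with rDKK3 (6 samples, edgeR) against canonical transcript length in bases (log axis) for tested genes (grey) and the 39 tested genes described here (filled circles); black bars are medians of all genes in 4 length classes. The axes hold 14860 of 15125 genes with a length, and the circles lie below the bar in the median of each class.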

How the data were processed

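The authors prepared strand-specific libraries, aligned read pairs with STAR 2.7.9a to GRCm39, counted them per GENCODE gene with GenomicAlignments and deposited raw counts without normalization; the submitters' processing notes also name Picard 2.19.2, DESeq2 1.38.0 and R 4.2.2. All 12 value columns matched a library by name. The 40 genes and all gene lists were chosen with earlier results of these data known.

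The 2 libraries of a line and condition were summed. With a shift between library series allowed, their mean deviance per degree of freedom was 0.78 over 12980 genes (6.44 without it). Nothing in the labels says that they are separate cultures. The p-values over separate libraries thus rest, in whole or in part, on a spread that may be technical. The main test was edgeR 4.0.16 (quasi-likelihood, two-sided, TMM, edgeR's filter on low counts) in R 4.3.3 with line and treatment, Benjamini-Hochberg over 15165 genes, threshold 0.05. Treated and untreated samples are paired by the line in the labels, and deviations of the libraries of a line from the condition means correlated at 0.80 to 0.87. Each SE is the absolute log2 fold change divided by the square root of the F statistic of the test, not a spread between lines. Line differences used an F test over 2 coefficients. Line-dependent responses and single lines were fitted on 12 libraries with the library series. Log2 CPM used a prior count of 2. The floor of 3 counts was 0.127 to 0.755 CPM per library, for counting error only. Alternatives were DESeq2 1.42.0, RLE, other filters, other blocks, 1 library series, leaving out a line and, chosen after seeing the data, thinning and a length offset. Tests were checked on simulated data with the same treatment effect in every line and no shift between library series. The real data differ in both respects, so the check does not cover them. Gene positions and lengths are from GENCODE on GRCm39, with a length for 15125 tested genes.

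Values in each sample were given for 8 fixed genes (Nfe2l2, Keap1, Nqo1, Gclc, Gclm, Slc7a11, Txnrd1 and Srxn1), genes called with rDKK3 in the summed or separate fit, the 5 largest changes in the same direction in all lines and the 5 widest untreated ranges. In other lists the genes called over separate libraries were named, or those tested where none was called. Sod2, Mgst1, Gpx1, Prdx1, Prdx6, Gpx2, Gpx4, G6pdx, Pgd and Taldo1 were added after their values were seen. One allele of the mice is not reported here.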

Additional observations from a re-analysis of the deposited data

Results flagged for a closer look

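The response to rDKK3 differed between the 3 lines for 38 of 39 tested genes by the test of line-dependent response (edgeR on 12 libraries, adjusted p under 0.05), which compares cultures with library noise alone. The values below are the gap on the log2 scale between the line with the highest and the line with the lowest fold change. For NRF2 and its repressor the gap was 0.46 for Nfe2l2 and 0.67 for Keap1. For the stress targets the gap was 1.96 for Nqo1 and 0.59 for Osgin1. In glutathione synthesis and recycling the gap was 2.08 for Gclc, 0.88 for Gclm, 0.31 for Gss, 0.30 for Gsr and 1.12 for Slc7a11. In the thioredoxin system the gap was 0.14 for Txn1, 0.25 for Txn2, 1.03 for Txnrd1, 0.44 for Txnrd2 and 1.05 for Srxn1. Among peroxiredoxins the gap was 1.28 for Prdx1, 0.49 for Prdx2, 0.41 for Prdx4, 0.34 for Prdx5 and 0.51 for Prdx6. For the glutathione peroxidases the gap was 1.88 for Gpx1 and 0.33 for Gpx4. Among glutathione transferases the gap was 1.70 for Gsta4, 1.28 for Gstm1, 0.97 for Gstm5, 0.84 for Gstp1, 0.41 for Gsto1, 3.44 for Gstt1, 1.66 for Mgst1, 0.67 for Mgst2 and 0.45 for Mgst3. For the superoxide dismutases and catalase the gap was 0.43 for Sod1, 2.17 for Sod2 and 0.62 for Cat. In NADPH supply the gap was 0.56 for G6pdx, 0.57 for Pgd, 0.24 for Taldo1, 0.32 for Tkt and 0.60 for Me1. The gap of Gstt1 rests on a DDKC_9804 treated sample with 2 counts. Prdx3 did not pass the test.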

How the results depend on the processing

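The edgeR test of rDKK3 on summed samples called 0 of 39 genes and 1 of all genes. Called members numbered 15 with libraries kept separate, 16 with the library series as a covariate, 3 with DESeq2 and 2 without a filter on low counts, and 0 under the other alternatives. All genes called numbered 2744 with separate libraries, 3124 with the series covariate, 103 with DESeq2, 90 without a filter, 0 with at least 10 counts in every sample, 6 with lower library numbers only, 2 after thinning, and from 0 to 2 when 1 line was left out. Without the replicate block of line, 0 members and 0 genes were called, both on summed samples and on separate libraries, and the member median was -0.227 and -0.236. The median stayed below 0 in every alternative, from -0.401 without DDKC_9750 to -0.11 without DDKC_9790. Genes differing between lines numbered 20 members of 5348 genes, and 38 of 11790 with separate libraries (38 of 12211 with the series). The looser core raised the promoters from 11 to 21, since it includes the stricter one. Separate libraries and the looser core differ by construction; for the other changes the cause was not tested.

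Named genes changed sign in 13 of 374 fits, none past the threshold. Without the block these were Slc7a11 (-0.011), Gstt1 (-0.067) and, on separate libraries, Slc7a11 (-0.02), Srxn1 (-0.002) and Gstt1 (-0.044). They were Gclc (-0.59), Srxn1 (-0.14) and Gstt1 (-0.74) without DDKC_9750, Nqo1 (0.008) and Gclm (0.16) without DDKC_9790, Slc7a11 (-0.073) and Txnrd1 (-0.17) without DDKC_9804, and Gclm (0.003) after thinning. Leaving out 1 line at a time gave ranges of -0.94 to 0.008 for Nqo1, -0.59 to 0.44 for Gclc, -0.28 to 0.16 for Gclm, -0.073 to 0.50 for Slc7a11, -0.17 to 0.36 for Txnrd1, -0.14 to 0.38 for Srxn1 and -0.74 to 0.67 for Gstt1. Depth limits Gpx2 and, in DDKC_9804, Gstt1, which lie at or near the floor of 3 counts.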
